A study of Mus musculus with 2 samples.

Results

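The genes described here are the 9 protein-coding genes *Ppp2r5c*, *Dync1h1*, *Hsp90aa1*, *Cinp*, *Tecpr2*, *Rcor1*, *Traf3*, *Cdc42bpb* and *1200009I06Rik*. They lie on mouse chromosome 12 past *Dio3*, the last gene of the *Dlk1*-*Dio3* imprinted domain. They were chosen by name and position, with earlier results of these data known. All 9 had covered bases. The covered stretches of the deposited tracks wholly hold 1718 annotated genes, of which 1228 had a covered exon base. The study sequenced RNA of mouse embryo fibroblasts (MEFs) from reciprocal crosses to find transcripts that come from one parental allele. The JXO library came from a JF1 mother and a TgOG2 father, and the OXJ library from the reverse mating. JF1 is an inbred strain of the subspecies molossinus. TgOG2 carries the GOF18ΔPE-EGFP transgene, in which *Pou5f1* sequences drive EGFP, and was made from CBA/CaJ and C57BL/6J mice, so MEFs of both crosses carried 1 genome of either kind. Each library was 1 MEF line from a female embryo at 13.5 dpc, taken at an early passage after the head and internal organs had been removed, so the crosses have no replicates and no test between them was possible. Cross, embryo, culture and library cannot be told apart, and in such bulk RNA fewer cells of a type and less RNA per cell cannot be told apart either.

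In an imprinted domain a gene is transcribed mainly from the chromosome of one parent. The *Dlk1*-*Dio3* domain holds protein-coding genes that are expressed from the paternal chromosome and long non-coding RNAs such as *Meg3*, *Rian* and *Mirg* that are expressed from the maternal chromosome. The genes past it serve general functions of the cell: phosphatase targeting, transport along microtubules, protein folding, replication, autophagy, chromatin repression, signalling and the cytoskeleton. The alleles are not marked in the tracks, so whether the 9 genes came from both chromosomes was not analysed here.

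Levels are mean scaled depth, the number of reads over a base per 50000000 aligned reads. In JXO a single read adds 0.652 to a base and in OXJ 0.579, and the tracks hold 5837225 reads of JXO and 5785447 of OXJ. Intervals are exact 95% intervals on read pairs and cover counting error only. The tracks hold 618 stretches of 63.7 Mb in all, and a base outside them was not measured. With the track named forward read as the (−) strand, 718 of 798 protein-coding genes with unequal strands in JXO (90.0%, exact interval 87.7 to 92.0%) had more signal on the strand of the gene. Fibroblast markers were present: *Col1a2*, a chain of type I collagen, was at 583 in JXO and 388 in OXJ, and *Dcn* and *Lum*, matrix proteoglycans, lay between 15.5 and 25.9. Those were the 3 of 12 fibroblast markers inside the stretches. Of the other lists, 3 of 4 germ cell markers and 2 of 5 neural markers were inside. *Pou5f1* and *Dppa3* had no covered exon base on their strand, which does not show that they were absent. *Ddx4*, a germ cell helicase, was at 0.980 in JXO and 4.14 in OXJ. *Sox2* was at 1.27 and 1.22, and *Nes*, which many cultured mesenchymal cells also express, at 340 and 155. No marker of blood, endothelium, epithelium or skeletal muscle lay inside a stretch.

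The 9 genes span 0.984 Mb of mm9, from the start of *Ppp2r5c* at 111685518 to the end of *1200009I06Rik* at 112669393, in a single stretch. *Ppp2r5c* begins 166 kb past *Dio3*, and its annotated start lies 9 bases before the stretch, so it was left out of the genes that served as background. *Hsp90aa1*, *Cinp* and *Cdc42bpb* are transcribed from the (−) strand and the other 6 from the (+) strand. Of 14 other annotated genes between them, 9 are protein-coding, and 4 of those had a level under 1 in both libraries. Among these, *4930595D18Rik* and *A230065H16Rik* had no covered exon base on their strand, so they were not measured. Of the 5 that are not protein-coding, 4 were under 1 in both.

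The sequences that the results below turn on are shown first, from mm9 and 5′ to 3′. *Cinp* and *Tecpr2* start head to head, 148 bases apart, and the first run is all of that interval, chr12:112127326-112127473 on the strand of *Tecpr2*. Capitals mark TGACGTCA, the letters of a cyclic AMP response element, and a GC box (GGGCGG, here on the other strand).
*Cinp*-*Tecpr2* interval: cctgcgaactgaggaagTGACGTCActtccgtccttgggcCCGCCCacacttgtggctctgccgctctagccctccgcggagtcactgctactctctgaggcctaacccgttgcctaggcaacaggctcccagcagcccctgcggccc
The next run is from the (−) strand at chr12:111932203-111932262 and holds the end of *Hsp90aa1* exon 5 with the start of the intron after it in capitals. The run under it joins the same 30 bases to the first 30 of exon 6, with the joined bases in capitals. The last run of the 3 is a stretch of chromosome 11 at chr11:77107952-77108011, which does not hold the intron. The same letters stand at chr3:17909750-17909809.
*Hsp90aa1* exon 5 and intron: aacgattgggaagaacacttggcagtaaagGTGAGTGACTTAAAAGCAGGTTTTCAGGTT
*Hsp90aa1* exon 5 joined to exon 6: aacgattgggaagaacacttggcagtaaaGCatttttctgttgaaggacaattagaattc
Chromosome 11: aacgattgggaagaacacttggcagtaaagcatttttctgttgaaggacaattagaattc
A run inside an intron of *Tecpr2*, chr12:112136435-112136534, is shown because its 100 bases, the length of a read, are the same as in the coding sequence of *Rps19*, a protein of the small ribosomal subunit.
*Tecpr2* intron: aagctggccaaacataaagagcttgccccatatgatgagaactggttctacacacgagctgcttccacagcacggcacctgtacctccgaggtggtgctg
The last pair of runs belongs to *Ppp2r5c*. The first spans the end of exon 15 at chr12:111808949-111809008, with the intron in capitals, and the second holds the letters AATAAA in capitals, which a poly(A) signal usually has, at chr12:111809866-111809895.
*Ppp2r5c* exon 15 and intron: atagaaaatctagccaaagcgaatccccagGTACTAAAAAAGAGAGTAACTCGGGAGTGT
*Ppp2r5c* intron: tctttgtcatttAATAAAaacaatatatga

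Exon levels of the 9 genes differed by over 2 orders of magnitude, and their order was nearly the same in both libraries. *Hsp90aa1*, a cytosolic HSP90 chaperone, was the highest at 881 (870 to 891) in JXO and 419 (412 to 426) in OXJ. *Dync1h1*, the heavy chain of cytoplasmic dynein, was at 125 (123 to 127) and 115 (113 to 117). *Ppp2r5c*, a regulatory B56 subunit of protein phosphatase 2A, was at 113 (109 to 116) and 62.6 (60.2 to 65.1). *Cinp*, a protein that binds CDK2, was at 98.1 (93.5 to 103) and 58.1 (54.7 to 61.6), and *Cdc42bpb*, a kinase that binds CDC42, at 74.3 (72 to 76.7) and 58.2 (56.3 to 60.2). These 5 genes lay between the 77.2 and the 97.7 percentile of 610 protein-coding genes in JXO. The median of those 610 genes was 19.0 in JXO and 13.9 in OXJ.

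The other 4 genes were lower. *Rcor1*, the corepressor CoREST, was at 25.2 (23.7 to 26.7) in JXO and 25.0 (23.6 to 26.4) in OXJ, and *Traf3*, an adaptor of TNF receptor signalling, at 22.9 (21.7 to 24.2) and 17.5 (16.4 to 18.5). *Tecpr2*, a protein linked to autophagy, was at 6.81 (6.17 to 7.50) and 5.34 (4.80 to 5.92). *1200009I06Rik* was the lowest at 1.45 (1.05 to 1.91) and 1.66 (1.27 to 2.13), from 47 and 61 read pairs. Its exons were covered over 27.6% and 46.6% of their bases, against 90.4% to 99.7% for the other 8 genes. Of neighbours in this order, the intervals overlapped only for *Rcor1* and *Traf3* in JXO, and for *Ppp2r5c* with *Cdc42bpb* and *Cdc42bpb* with *Cinp* in OXJ. The scale mattered to this order. As the mean of log2 values *Hsp90aa1* was at 165 in JXO and 94.0 in OXJ, *Ppp2r5c* at 60.1 and 34.7, *Cinp* at 33.2 and 21.4 and *1200009I06Rik* at 0.503 and 0.710, so that *Cdc42bpb* (61.5 and 48.9) stood above *Ppp2r5c* and *Cinp*. With the longest coding transcript alone, *Cinp* (134 and 79.3) stood above *Ppp2r5c* (119 and 66.2), and in JXO *Traf3* (24.0) above *Rcor1* (21.6). Without the exon bases shared with other genes *1200009I06Rik* was at 0.869 and 1.25. For scale, *Dio3*, the deiodinase gene on the other side of the gap, was at 2.22 and 2.48, and *Rian* at 233 and 179.

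**Figure D1:**
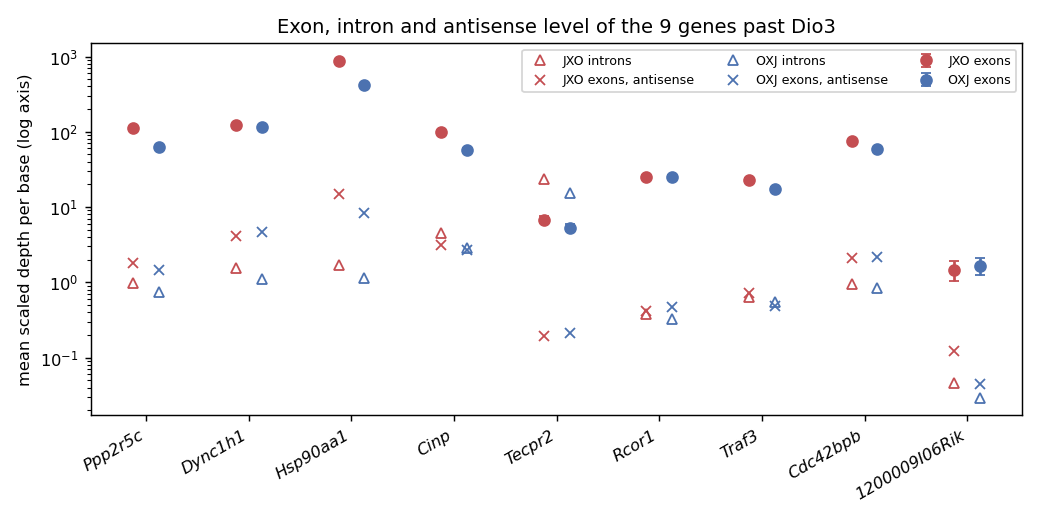
Mean scaled depth per base (log axis) of the 9 genes in chromosome order, with exons as filled circles, introns as triangles and the antisense strand of exons as crosses, JXO in red and OXJ in blue. Bars are exact 95% Poisson intervals of the exon level and are hidden by most circles. Exons lay above introns in all but *Tecpr2*, where introns averaged 23.8 and 15.3.

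The JXO over OXJ ratio was taken after centring on the median gene, since that gene was 0.49 (log2) higher in JXO in the deposited values. Called genes differed by at least 2-fold. None of the 9 genes was called in either direction. Of the 610 background genes 1.31% were at least 2-fold higher in JXO and 2.95% at least 2-fold higher in OXJ. The median of the 9 was -0.14 (log2), against 0 for the background by construction.

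*Hsp90aa1* had the highest ratio, 1.49-fold (1.46 to 1.52) toward JXO, at the 94.1 percentile of the background. *Ppp2r5c* was 1.28-fold (1.21 to 1.34) higher in JXO, and *Cinp* was higher there by 0.26 (log2, 0.15 to 0.37). Below 1 lay *Rcor1* at 0.715 (0.659 to 0.776), *Dync1h1* at 0.771 (0.753 to 0.788) and *1200009I06Rik* at 0.618 (0.412 to 0.916). *Cdc42bpb* was at 0.906 (0.865 to 0.949). For *Tecpr2* (0.784 to 1.05) and *Traf3* (0.858 to 1.01) the interval held 1. In the values as deposited *Hsp90aa1* was 2.10-fold higher in JXO and *Rcor1* 1.01-fold, so the side on which *Rcor1*, *Dync1h1*, *Tecpr2*, *Traf3* and *Cdc42bpb* fell depended on the centring. The middle 95% of background genes reached from -1.05 to 0.75 (log2), and all 9 genes lay inside that range. Of 5 imprinted genes, *Dlk1* was at 0.318 (0.270 to 0.370), past 2-fold, while *Dio3* was at 0.634 (0.383 to 0.988), *Meg3* at 0.671 (0.635 to 0.708), *Mirg* at 0.845 (0.763 to 0.936) and *Rian* at 0.922, in the range of the 9 genes.

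**Figure D2:**
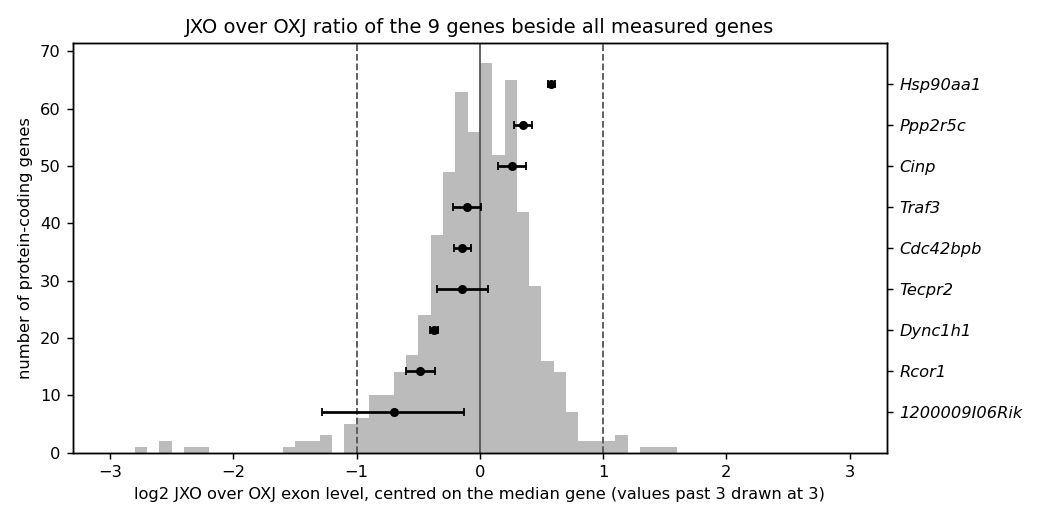
Log2 ratio of the exon level in JXO over OXJ, centred on the median gene, as a histogram of 610 protein-coding genes (grey, left axis) with the 9 genes as points with exact 95% intervals (right axis). Dashed lines mark 2-fold. The points reach from -0.69 for *1200009I06Rik* to 0.58 for *Hsp90aa1*, all inside the lines.

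Introns gave a second ratio, centred by the same 0.49 (log2), which left the median background gene at -0.09 over introns. Some introns held narrow blocks of signal outside annotated exons, described further on, which were left out here. *Ppp2r5c* was then at -0.17 (log2, -0.34 to 0.002) over introns and 0.35 (0.28 to 0.43) over exons. *Dync1h1* went the other way, with -0.06 (-0.24 to 0.13) over introns and -0.38 (-0.41 to -0.34) over exons. The intervals of introns and exons did not overlap in these 2 genes, with or without the blocks. In the other 7 they overlapped, as in *Hsp90aa1* with 0.09 (-0.45 to 0.58) and *Cinp* with 0.03 (-0.31 to 0.40) over introns. With the blocks, the intron interval of *Hsp90aa1* (-0.38 to 0.48) lay below that of its exons (0.55 to 0.61). *Tecpr2* changed sides, from 0.14 (0.10 to 0.18) with its block, above its exon interval of -0.35 to 0.06, to -0.38 (-0.69 to -0.08) without it.

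Within the genes the exon levels were far from even, and each gene had its own pattern. *Ppp2r5c* rose from exon 1 to exon 4, was high from exon 5 to exon 15 and fell after it. Exons 1 to 3 are not in its main transcript, which starts at exon 4. Exons 1 to 4 together were at 59.0 in JXO and 37.8 in OXJ, exons 5 to 15 at 300.3 and 155, exons 16 and 17 at 12.3 and 4.35, and the last exon, exon 18, at 42.7 and 28.5. The 5′ part of the main transcript was 2.26 (log2) above the 3′ part in JXO and 1.98 in OXJ, where the median of 486 genes was 0.04 and 0.09. Exons of the transcripts were merged, so exon numbers here count merged exons from the 5′ end.

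The signal of *Ppp2r5c* did not stop at exon 15. The last 30 bases of that exon were at 329 in JXO and 161 in OXJ, and the first 30 of the intron shown above were still at 173 and 97.9. After exon 14, by contrast, the same windows were at 413 and 0.912 in JXO and at 183 and 1.64 in OXJ. Past exon 15 a block with a depth of at least 3 in both libraries ran for 878 bases, to 111809856, at a mean of 43.8 and 27.8. Lower signal lay past it, since the 1 kb after the exon was covered over 100% of its bases in JXO and 90.3% in OXJ. The second kb after the exon was at 0.372 and 0.333. The letters AATAAA shown above begin 22 bases past the end of that block. They were looked for near that end, and how often they stand elsewhere was not counted. No annotated exon overlaps the block. A block of 1447 bases in an early intron, chr12:111687740-111689186, was at 8.79 in JXO and 7.09 in OXJ, 1493 bases from the nearest exon, and also has no annotated exon.

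**Figure D3:**
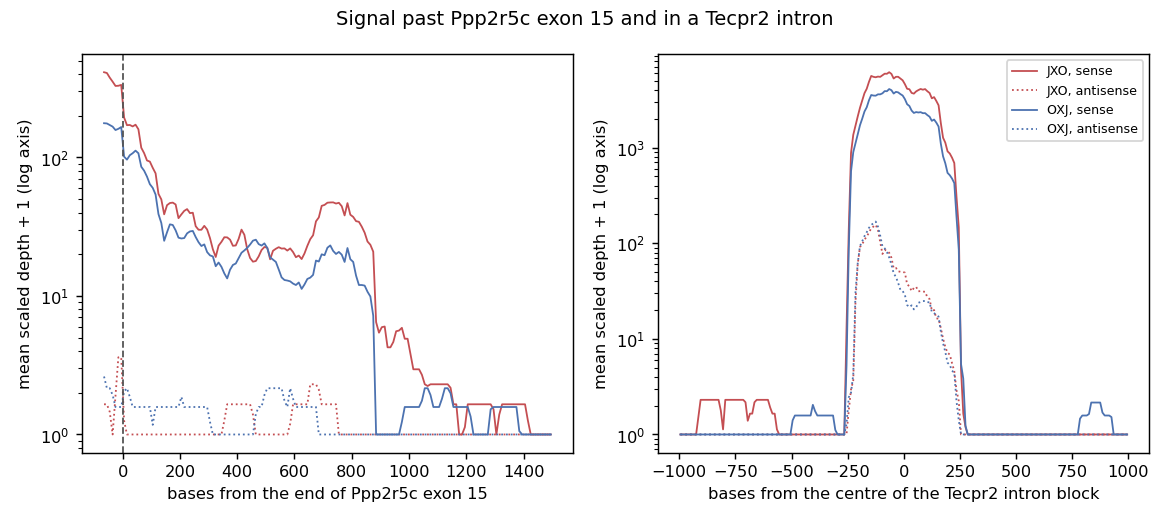
Mean scaled depth plus 1 in steps of 10 bases (log axes), by distance from the end of *Ppp2r5c* exon 15 (left) and from the centre of the *Tecpr2* intron block (right), JXO in red and OXJ in blue, sense solid and antisense dotted. The left block, with a depth of at least 3 in both libraries, goes on for 878 bases into the intron. The right signal peaks at 6315 in JXO and 4246 in OXJ.

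The exons of *Hsp90aa1* had very different levels. Exon 1, the distal first exon, was at 0 in JXO and 0.109 in OXJ, and exon 2 at 2.43 and 2.47, while exon 3 was at 434 and 267. Exon 5 was at 1951 and 1084, but exon 6 at 101 and 48.0. The last exon was at 1503 and 582.

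The depth of *Hsp90aa1* also fell toward the edges of its exons. Over 9 internal exons of 120 to 400 bases, the 10 bases at either edge had a median of 0.154 of the depth of the exon's middle 20 bases in JXO and 0.155 in OXJ. *Dync1h1*, over 62 such exons, was at 0.982 and 1.02, and the other genes with at least 3 such exons lay between 0.779 and 1.12. The median of 246 background genes in JXO was 0.965, and 0% of them were below *Hsp90aa1*. In exon 5 the middle 30 bases were at 3073 in JXO and 1820 in OXJ, the last 30 at 430 and 246, and the first 30 of exon 6 at 72.9 and 29.9.

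Copies were sought for the 9 genes only, so how common they are in background genes was not counted. Of the 9, *Hsp90aa1* alone had a spliced transcript with long near-identical copies elsewhere in mm9. At 95% identity or more over at least 300 bases there were 3: on chromosome 11 with 2783 aligned bases at 99.5%, on chromosome 3 with 2774 at 98.3% and on chromosome 19 with 789 at 97.1%. All 10 exon junctions of its main transcript stood in mm9 as a nearly unbroken run, as the run of chromosome 11 shown above does for exons 5 and 6. The search asked for 60 bases at 95% identity or more, of which at least 58 aligned. Such a run was found for 1 of 6 junctions of *Cinp* and for none of the other 7 genes. A gene's own place was not left out, so exons with few bases between them could match there. *Cinp* had no long copy elsewhere. The 3 copies lie outside the covered stretches, so reads placed on them were not measured here, and their part in the level of *Hsp90aa1* was not tested. Its level and ratio are therefore uncertain.

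**Figure D4:**
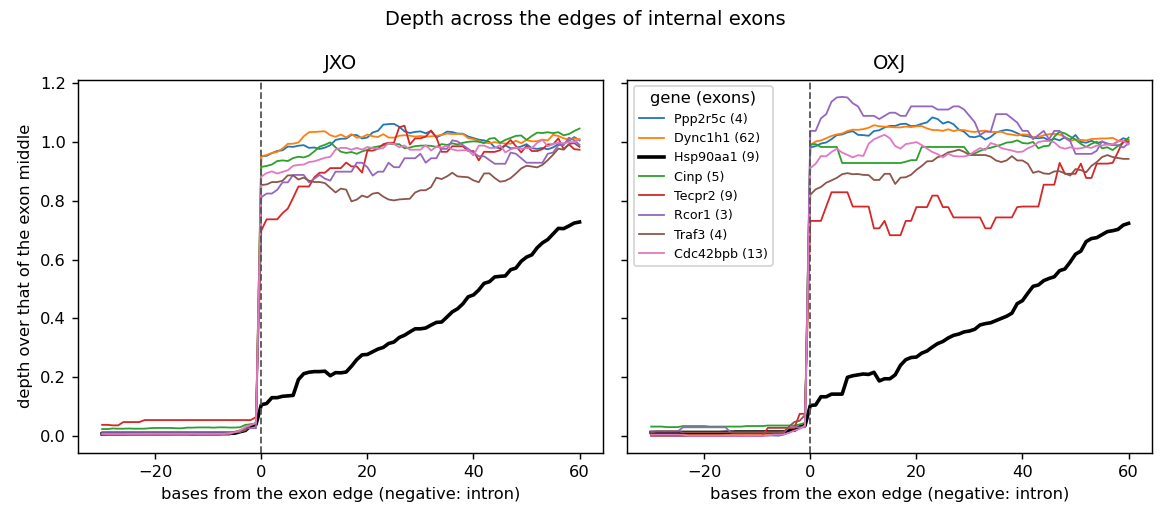
Depth over that of the exon middle against the distance from the exon edge in bases, with the intron at negative distances, as the median over internal exons of 120 to 400 bases (number of exons in the legend) for 8 genes in JXO (left) and OXJ (right). The other genes start close to the level of their middle, *Tecpr2* the lowest of them, whereas *Hsp90aa1* (black) starts low and climbs across the whole 60 bases.

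*Dync1h1* and *Cdc42bpb* had covered bases in each of their exons, but some exons were covered only in part. The main transcript of *Dync1h1* has 77 exons, so merging joined some of them. Of the 76 merged exons of *Dync1h1* the median was 137 in JXO and 122 in OXJ. Its lowest were exon 40 (21.1 and 20.3) and exon 64 (25.2 and 31.5). Exon 40 was covered over 84.1% of its bases in JXO and 33.3% in OXJ, and exon 64 over 94.3% and 78.2%. The centred ratio of *Dync1h1* was -0.26 (log2) in the 5′ part of its transcript and -0.49 in the 3′ part. The 37 exons of *Cdc42bpb* had levels of 28.6 to 118 in JXO and, in OXJ, of 28.7 to 87.0. In both libraries its lowest exon was the first, which was covered over 70.6% of its bases in JXO and 73.3% in OXJ.

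In all 9 genes the first exon of the main transcript was below the median exon, to a different extent. In JXO and OXJ it was at 61.8% and 62.2% of the median exon in *Cinp*, 57.4% and 61.3% in *Dync1h1*, 38.3% and 18.3% in *1200009I06Rik*, 34.0% and 43.7% in *Cdc42bpb* and 31.3% and 39.9% in *Ppp2r5c*. It was at 16.5% and 16.7% in *Tecpr2*, 8.57% and 28.7% in *Traf3*, 1.96% and 3.19% in *Rcor1* and 0.698% and 0.694% in *Hsp90aa1*. In *1200009I06Rik* the first and the median exon were below the depth that a single read adds in both libraries, so its share is uncertain. The median over 401 background genes with at least 5 exons was 34.2% in JXO and 40.3% in OXJ, so a low first exon was common there too. The share of those genes with a first exon below the median exon was not counted. First exons also had the higher GC content in each of the 9 genes, by little in *1200009I06Rik* (58.8% against 58.4%). The GC content of first exons was not measured in background genes, so this is not shown to be particular to the 9. The first exon of *Dync1h1* had 69.7% GC and that of *Rcor1* 68.5%, while *Traf3* had the highest, 82.1%, and *Ppp2r5c* the lowest, 53.3%. The part of GC content in these levels was not tested.

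*Cinp* had 1 exon that was nearly absent. Exon 5, in the main transcript, was at 1.76 in JXO and 4.69 in OXJ, between exon 3 at 239 and 166 and exon 6 at 163 and 91.7. Its last exon carried most of its signal before the end of the main transcript: the 965 bases before that end were at 118 and 63.7 and the 543 annotated bases past it at 1.63 and 0.853. In *1200009I06Rik* the signal stood in the last 2 exons. Exons 13 and 14 were at 8.70 in JXO and 9.06 in OXJ, and exons 1 to 12 at 0.179 and 0.369. At this depth exons 1 to 12 were covered over 14.9% and 37.3% of their bases.

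**Figure D5:**
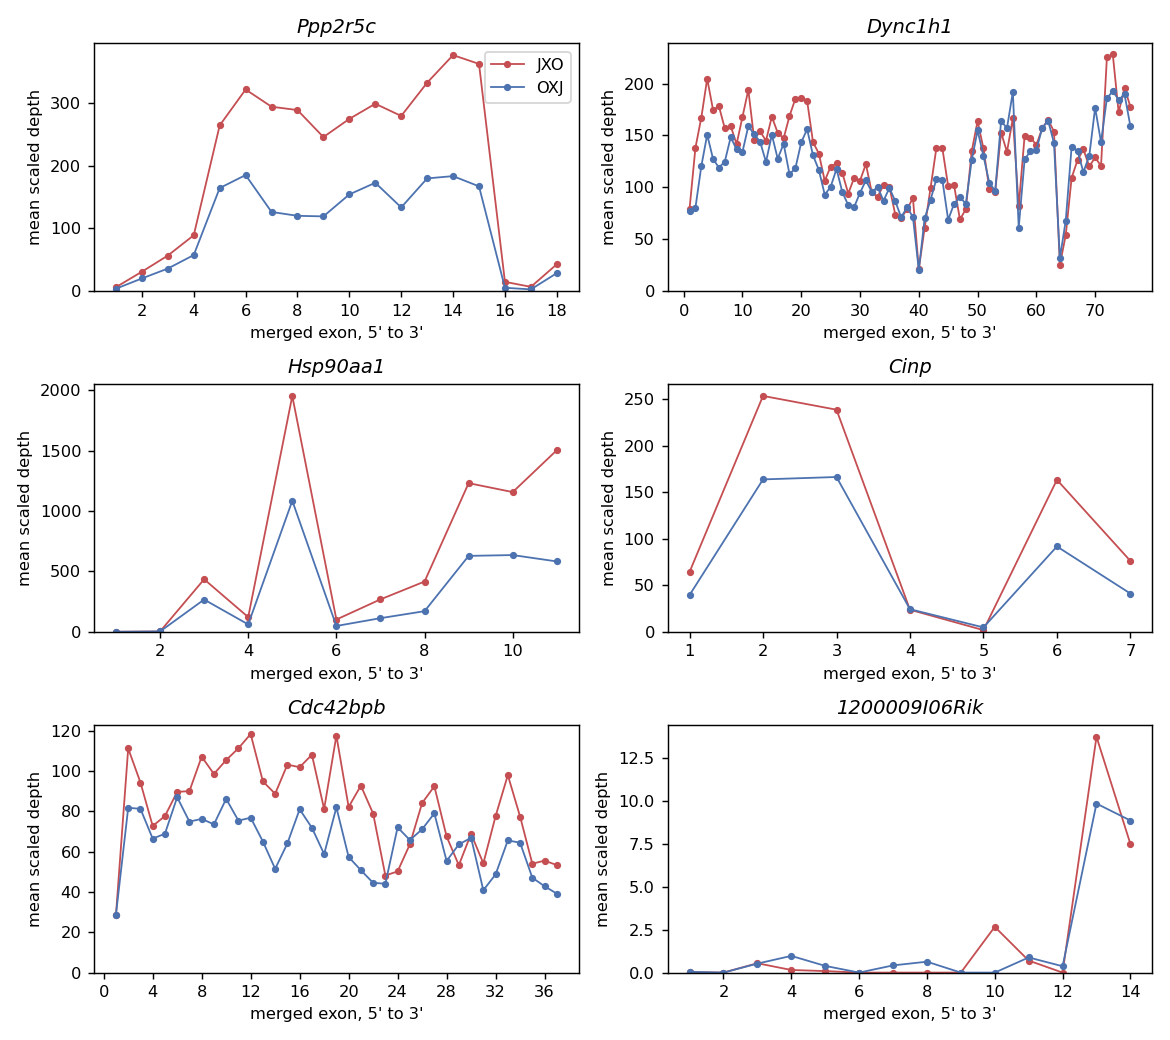
Mean scaled depth of each merged exon from 5′ to 3′ in 6 of the genes, JXO in red and OXJ in blue, with axes that start at 0. *Ppp2r5c* is high in exons 5 to 15, *Hsp90aa1* peaks in exon 5 at 1951 and 1084, *Cinp* is low in exon 5 and *1200009I06Rik* rises in exons 13 and 14.

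Introns were low in 8 of the 9 genes. Introns were the gene bases in no annotated exon, and a gene was called when its introns reached 10% of the exon level in both libraries. This held for *Tecpr2* alone, against 10.3% of 514 background genes. In the others the introns were between 0.191% (*Hsp90aa1*) and 4.58% (*Cinp*) of the exons in JXO. The median of the 9 was 1.50% in JXO and 1.46% in OXJ, where the background median was 2.84% and 2.92%. Introns held 25.7% of the sense reads of *Traf3* and 12.9% of those of *Cdc42bpb* in JXO. In OXJ they held 25.5% of those of *Ppp2r5c*, but 17.7% with its 4 blocks left out, which cover 2792 of its 131166 intron bases.

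The intron level of *Tecpr2* came from 1 narrow block. Its introns averaged 23.8 in JXO and 15.3 in OXJ, above its exons at 6.81 and 5.34. A block of 507 bases, chr12:112136291-112136797, was at 3490 and 2236. With that block left out the introns were at 0.310 and 0.287, which is 4.56% and 5.38% of the exons, and *Tecpr2* was no longer called. The block matched the *Rps19* transcript over all 507 bases at 99.0% identity with 0 gaps, with 5 differences in 438 coding bases, and 5 other places in mm9 matched it over at least 80% of its length. Reads could be placed at up to 10 loci, so this signal cannot be told apart from that of *Rps19* or its other copies. The block also had antisense signal of 54.3 and 52.6.

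*Cinp* had 4 blocks in its introns, with 2372 bases in all. The one that follows exon 3 and spans the small exon 4 was 967 bases long and at 22.0 in JXO and 14.1 in OXJ. Left out with the other 3, the introns of *Cinp* were at 1.65 and 1.14 in place of 4.49 and 2.84. Of the blocks in the members' introns, the 1 in *Tecpr2* alone matched an annotated coding transcript over most of its length. In the gap between *Dio3* and *Ppp2r5c*, which is not inside either gene, a block of 269 bases was at 2080 and 1406 and matched *Rps25* at 99.2%, and a block of 280 bases was at 30.7 and 25.2 and matched *Mrps26* at 98.2%. Blocks were defined, and these places named, after the values were seen.

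The intron signal also changed along some genes. With blocks left out, the introns of *Rcor1* were at 0.186 in JXO and 0.214 in OXJ in the first of 5 equal parts of the gene and at 0.829 and 0.899 in the last. In *Ppp2r5c* they rose from 0.107 and 0.128 in the first part to 1.19 and 0.971 in part 4, and were at 0.626 and 0.394 in part 5. The first part ends before exon 4, where the main transcript starts. *Traf3* had 0.830 and 0.678 in the first part and 0.866 and 0.685 in the last, with 0.359 and 0.341 in part 3.

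Taken over all exons of a gene, antisense signal was mostly a small share in both libraries. A gene was called at 5% or more of the signal over its exons in both libraries, which held for none of the 9 and for 14.9% of 610 background genes. The median of the 9 was 2.73% in JXO and 2.72% in OXJ, and the background median was 2.96% and 3.84%. *Dync1h1* had the most antisense read pairs, 494 and 629, or 3.19% (2.92 to 3.48%) and 3.89% (3.60 to 4.20%). *Hsp90aa1* had 1.65% and 1.97%, although its antisense level of 14.8 and 8.41 was the highest of the 9. Single exons could hold a larger share. In exon 4 of *Hsp90aa1* the antisense level was 43.5 in JXO and 13.8 in OXJ, beside a sense level of 121 and 60.8. *1200009I06Rik* was at 7.77% (2.18 to 18.9%) in JXO from 4 read pairs and at 2.61% in OXJ from 2, which is too few to place it.

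Genes on the other strand overlap some exons. *Gm17111*, a non-coding gene on the (−) strand, shares 48 exon bases with *Dync1h1*, over which the *Dync1h1* strand was at 238 and 194 and the other strand at 18.7 and 25.8. *A230087F16Rik*, a lincRNA, shares 1017 exon bases with *Cdc42bpb*, and its strand was at 0.335 and 0.840 there. *Gm10425* shares 614 exon bases with *1200009I06Rik*, and its strand was at 0.115 and 0.193. *4930595D18Rik* overlaps the start of *Traf3* but had no covered exon base on its own strand. Within 5 kb of an end, *1700001K19Rik* past *Dync1h1* was at 0.097 and 0.089, *Amn* past *Traf3* at 0.294 and 0.253, *Ankrd9* past *Tecpr2* at 3.38 and 3.12 and *Zfp839* near *Cinp* at 3.32 and 2.45. *A230065H16Rik*, before *1200009I06Rik*, had no covered exon base.

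Between the start of *Cinp* and that of *Tecpr2* almost no RNA was seen. Over the 148 bases shown above, the *Tecpr2* strand was at 0 in both libraries and the *Cinp* strand at 0.577 and 0.505. The 2 genes differed about 14.4-fold in JXO and 10.9-fold in OXJ over their exons. The interval was 65.5% GC with 9 CG dinucleotides, where the medians over 22380 windows of 148 bases before protein-coding genes were 56.8% and 6. It held a GC box, as did 35.3% of those windows, and TGACGTCA, as did 1.69%. The latter motif was looked for after the sequence had been read. It held neither CCAAT nor TATAAA, which 25.9% and 7.82% of the windows did. Both strands were searched.

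Past their ends the 9 genes had little sense signal. Over the 5 kb past the annotated end, leaving out genes on that strand, the median was 0.235 in JXO and 0.116 in OXJ, and the background median was 0.222 and 0.161. *Hsp90aa1* was the highest at 1.75 and 0.984, near its own intron level of 1.69 and 1.16, and *Dync1h1* followed at 1.02 and 0.835. *Ppp2r5c* was at 0.052 and 0.069, which is 5.25% and 9.29% of its intron level. In the same window *Rian* was at 20.5 and 14.9 and *Meg3* at 4.91 and 4.79, while *Mirg* was at 0.143 and 0.151, *Dlk1* at 0 in both and *Dio3* at 0 and 0.012. Between *Rcor1* and *Traf3*, outside genes, the (+) strand was at 0.115 and 0.096 and the (−) strand at 0.

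The imprinted non-coding RNAs differed among themselves in the same share. *Meg3* introns were at 87.3% of its exons in JXO and 95.8% in OXJ, *Mirg* introns at 26.7% and 36.0% and *Rian* introns at 5.35% and 6.91%. All intron bases were kept in these RNAs, and their shares without blocks were not measured. With all intron bases kept, *Tecpr2* was at 350% and 287%, above these RNAs, and the others of the 9 genes lay below them. With blocks left out in all 9 genes, *Tecpr2* had the highest such share of them in both libraries, at 4.56% and 5.38%.

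Few partner genes of the 9 lay inside the covered stretches. Of 9 other subunits of protein phosphatase 2A 1 was measured, *Ppp2r5d*, at 69.6 in JXO and 48.9 in OXJ. Of 11 dynein and dynactin genes *Dync1i1* was measured, at 0.855 and 0.731. Of 10 genes of the HSP90 machinery *Hspa1b*, a heat-inducible HSP70, was at 21.0 and 21.1, and of 5 CDC42 genes *Pak1* was at 36.7 and 27.9. None of these 4 was past 2-fold in the centred ratio. No gene of the CoREST, TRAF and NF-kB, CDK2 and checkpoint or autophagy lists lay inside a stretch.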

How the data were processed

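Ribosomal RNA was removed from the total RNA of 1 JXO and 1 OXJ MEF line, and paired reads of 100 bases were made from dUTP libraries, which keep the strand. The submitters' processing notes name CASAVA 1.9 and TopHat 1.2.0; reads were placed on mm9 at up to 10 loci. The authors deposited log2 of 1 plus the read depth at each base, scaled to 50000000 aligned reads, in 4 tracks. These log2 values were turned back into depth, which was a whole number of reads at each base (largest relative deviation 3.61e-14). Stretches are covered bases with no gap over 50 kb. GENCODE M1 exons of all transcripts of a gene were merged. Background genes were protein-coding, wholly inside a stretch and had at least 20 read pairs (200 bases each) in both libraries together, or, for introns, also at least 1000 intron bases. Intervals are exact Poisson or Clopper-Pearson. No p-value was computed, since each cross had 1 library. Blocks were at least 200 bases outside exons with a depth of at least 3 in both libraries, joined over gaps of up to 50 bases. Copies were sought with BLAST 2.17.0. Named genes were the 9 members, 5 imprinted genes, overlapping or nearby genes and the measured partners and markers. The members and lists were chosen with earlier results of these data known. Alternatives changed exons, scale, centring, floor and window. The reader, the ratio and its interval were tested on simulated data. Calculations used scipy 1.17.1, numpy 2.4.6 and pandas 2.3.3 in Python 3.11.15, and figures matplotlib 3.10.9.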

Additional observations from a re-analysis of the deposited data

How the results depend on the processing

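The order of the exon levels rests on 1 library per cross. No paired analysis was possible because each cross had 1 library. The median exon level of the 9 genes went from 74.3 to 78.8 in JXO without exon bases shared with other genes, and to 33.2 in JXO and 21.4 in OXJ as the mean of log2 values, which weights low bases more. Single genes moved as well, by over 1.5 times in *Hsp90aa1* (881 to 165 in JXO), *Cinp*, *Ppp2r5c* and *1200009I06Rik*, and their order changed with the scale and the transcript. In the deposited values 1 gene, *Hsp90aa1*, was past 2-fold toward JXO and the median log2 ratio was 0.35. With equal totals the median was 0.17 and as the mean of log2 values -0.074. Over introns it was 0.047 when centred by 0.40 (log2), and -0.044 with the centring of the exons. Intron ratios without blocks were added after seeing the data. Without shared bases 1 gene, *1200009I06Rik*, was past 2-fold toward OXJ (-1.03). The count of genes with introns at 10% of exons went from 1 to 0 as the mean of log2 values, and to 0 without blocks, an alternative chosen after seeing the data. The median intron share was 1.75% in JXO with the longest coding transcript, 1.26% and 1.27% as the mean of log2 values, 1.18% and 0.996% with single reads set to 0, and 1.27% in OXJ away from exon edges. In the 1 kb past the end the median was 0.579 in JXO. The antisense count stayed at 0 under each alternative. Depth limits *1200009I06Rik* most.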
